A study of Mus musculus with 32 samples.

Results

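The respiratory chain of mitochondria is built from 2 genomes, and the genes of both were examined in tumors and lungs of mice with and without Clic4. Genes were taken by symbol. Those beginning mt-Nd, mt-Co, mt-Cytb or mt-Atp formed the mitochondrial set, and those beginning Ndufa, Ndufb, Ndufc, Ndufs, Ndufv, Uqcr, Cox4i, Cox5 to Cox8 or Atp5, with Sdha to Sdhd, formed the nuclear set, leaving out pseudogenes, Ndufaf assembly factors and antisense genes. The count table held 97 such genes of 29511, of which 13 were mitochondrial and 84 nuclear, and 9 further symbols were dropped. The mitochondrial set had 7 genes of complex I, 1 of complex III, 3 of complex IV and 2 of complex V. The nuclear set had 36 of complex I, 4 of complex II, 8 of complex III, 19 of complex IV and 17 of complex V.

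Complex I passes electrons from NADH, and complex II those from succinate, to ubiquinone. Complex III hands them on to cytochrome c and complex IV to oxygen, and the proton gradient that complexes I, III and IV build drives ATP synthesis by complex V. Mitochondrial DNA encodes core subunits of every complex but complex II, and its genes are transcribed as long polycistronic RNAs that are cut at tRNAs. The nuclear genes are transcribed one by one, and several complex IV subunits exist as a general isoform and a second one that is known from heart, skeletal muscle, brown fat, lung or testis.

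All mice were virgin female FVB/N animals of 6 to 8 weeks, either Clic4 knockout (KO) or wildtype (WT) littermates from matings of heterozygous parents. The KO allele lacks the region of exon 2 in every cell of the host. The 6DT1 cells, a line from a mammary tumor of an MMTV-Myc mouse, express Clic4 and were grafted into the fourth mammary fat pad, so that tumors in both hosts hold Clic4-expressing tumor cells beside host stroma. Poly(A)-selected, stranded RNA was sequenced from lungs without a graft (control, 4 WT and 4 KO), lungs taken 14 days after the graft (6 WT and 6 KO) and primary tumors of the same day (6 WT and 6 KO). Lungs of day 14 were called pre-metastatic by the submitters, and every tumor came from the same cell line.

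Gene counts of a sample summed to 4446323 at the least and 8318711 at the most. Clic4 was at 206 to 280 CPM (counts scaled per library by TMM factors) in KO lungs and at 587 to 867 in WT lungs, and at 248 to 280 in tumors of KO hosts and 296 to 325 in those of WT hosts. KO and WT samples therefore did not overlap in either tissue. Summed lung epithelial markers were at 15247 to 17563 CPM in lungs and 6.26 to 18.3 in tumors, and summed proliferation markers were at 60.5 to 165 CPM in lungs and 792 to 1155 in tumors. Each tissue showed its own markers.

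A stretch of chromosome 1 carries near-identical copies of 7 of the 13 mitochondrial genes, annotated as unprocessed pseudogenes on the minus strand between 24611535 and 24616197 of GRCm38. The sequences matter for the values of these genes, since a read from an identical stretch cannot be assigned to one gene or the other. The first 60 bases of mt-Co2 (chrM:7013-7072, plus strand) and of its copy Gm28661 (chr1:24615506-24615565, minus strand) are the same, as are all 681 aligned bases:
mt-Co2: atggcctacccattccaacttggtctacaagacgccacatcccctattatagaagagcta
Gm28661: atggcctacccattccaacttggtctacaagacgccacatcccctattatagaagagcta
In mt-Nd3 (chrM:9459-9518, plus strand) and Gm28438 (chr1:24613060-24613119, minus strand) 1 of 345 aligned bases differs, T3C, counted from the first base of mt-Nd3 and shown in capitals:
mt-Nd3: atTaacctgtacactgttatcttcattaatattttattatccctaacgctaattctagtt
Gm28438: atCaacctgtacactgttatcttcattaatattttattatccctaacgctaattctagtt
In mt-Co1 (chrM:6390-6449, plus strand, bases 1063 to 1122 of the gene) and Gm29216 (chr1:24616129-24616188, minus strand), which matches only the end of the gene, 1 of 483 aligned bases differs, A1066T, also in capitals:
mt-Co1: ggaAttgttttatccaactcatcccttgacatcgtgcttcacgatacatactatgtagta
Gm29216: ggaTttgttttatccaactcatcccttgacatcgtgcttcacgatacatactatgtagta

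The deposited counts divided these reads unevenly. mt-Co2, which encodes the subunit of complex IV that takes up electrons from cytochrome c, was listed at 0 in 17 of 32 samples, and Gm28661 held between 90.5% and 100% of the reads of the pair. mt-Co3 held no more than 3 counts in 6 samples, and its copy Gm28437 held a median of 90.2% of the pair's reads. For mt-Atp6, the proton channel subunit of complex V, the share on the copy Gm10925 ran from 0.479% to 66.0% among samples. For mt-Nd4l and Gm10222 the share ran from 0% to 91.4%. The copies of mt-Co1 and mt-Nd3 took smaller shares, with medians of 10.4% and 0%. The copy of mt-Nd4, Gm28439, was not analysed here. The 7 mitochondrial genes without a copy in the count table (mt-Nd1, mt-Nd2, mt-Nd4, mt-Nd5, mt-Nd6, mt-Cytb and mt-Atp8) carry the mitochondrial results below, beside sums of each other gene with its copy.

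**Figure D1:**
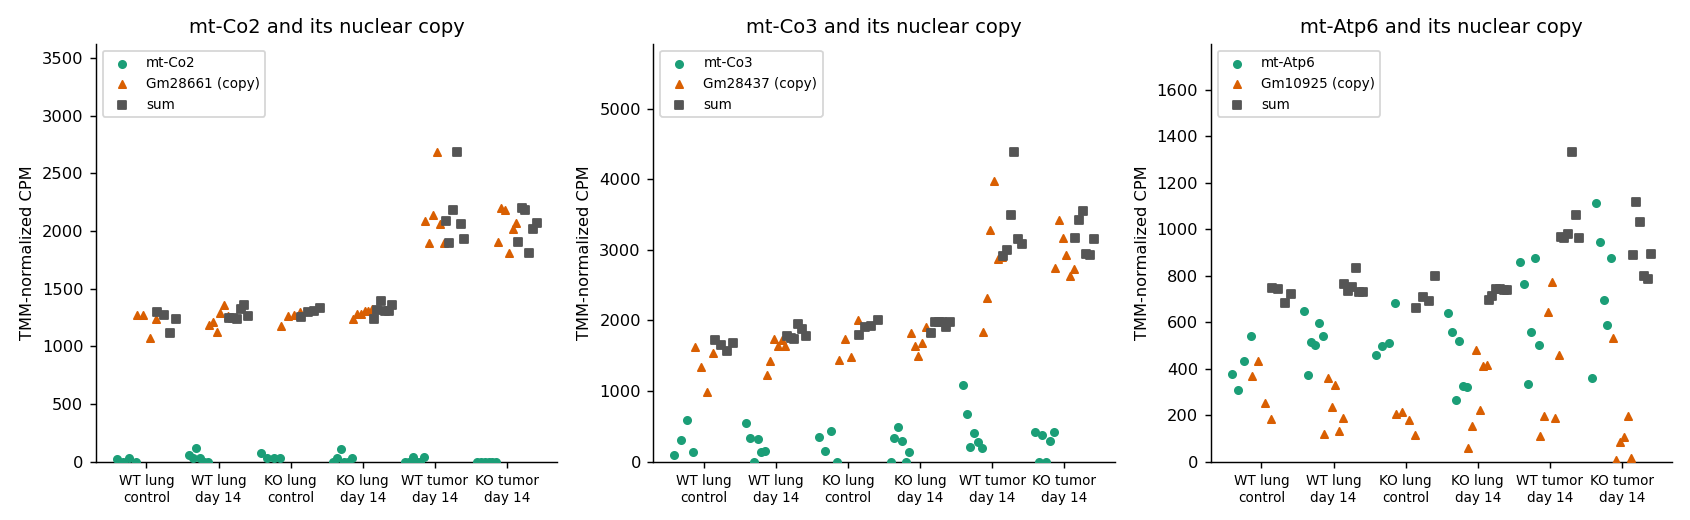
CPM (TMM-normalized, linear axis from 0) of mt-Co2, mt-Co3 and mt-Atp6 (circles), of the chromosome 1 copy of each (triangles) and of their sum (squares), one point per sample in the 6 groups. Single genes scatter widely within a group, while the sums for mt-Co2 sit at 1113 to 1394 in all lungs and at 1813 to 2682 in all tumors.

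Summing each pair removed most of that scatter. The sum of mt-Co2 and Gm28661 had a median of 1254 CPM in WT control lungs, 1253 in WT day 14 lungs, 1301 in KO control lungs and 1311 in KO day 14 lungs, against 2073 in WT tumors and 2044 in KO tumors. The sum of mt-Co3 and Gm28437 had a median of 1784 CPM in WT day 14 lungs and 3120 in WT tumors. No lung overlapped with a tumor in either sum.

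By length-scaled level (FPKM, the deposited values), mt-Co1, the catalytic core of complex IV, was the highest member in all 6 groups, with medians of 3111 in WT control lungs, 4871 in WT tumors and 5227 in KO tumors. With its copy it made up 37.2% to 48.2% of the counts of the mitochondrial set with copies. mt-Atp8 had the second highest median of the single genes in WT control lungs, 2275 FPKM. It is only 204 bases long, was at 38.3 to 57.6 CPM in lungs and shares 43 bases with mt-Atp6 (chrM:7927-7969). This order is that of single genes as deposited, where mt-Co2 and mt-Co3 have most reads of their pairs on the copies. mt-Nd1 led the mitochondrial genes of complex I with 999.9 FPKM in WT control lungs, and mt-Nd6, the only member on the minus strand, was the lowest of complex I with 145. mt-Cytb, the cytochrome b of complex III, was at 997 in the same lungs. Genes of one strand thus stood at unlike levels per length.

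Atp5b, the catalytic beta subunit of complex V, led the nuclear set with medians of 258 FPKM in WT control lungs and 528 in WT tumors. Cox4i1, the general isoform of subunit 4, led complex IV with 181 and 280. Uqcrh, the hinge protein of complex III, was at 148 and 253. In complex I, Ndufa3 was highest in WT control lungs at 111 FPKM and Ndufb8 in WT tumors at 105. In complex II the order of subunits differed between tissues. Sdha, the flavoprotein that oxidises succinate, was highest in WT control lungs at 51.5 FPKM, and Sdhd, a membrane anchor, was highest in WT tumors at 83.9. Cox7b2, known from testis, had a median of 0 in 5 groups and of 0.24 in KO control lungs.

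The mitochondrial set with its 6 counted copies took 1.10% to 1.18% of gene counts in WT control lungs and 1.17% to 1.29% in WT day 14 lungs. In KO lungs the share was 1.14% to 1.26% in controls and 1.18% to 1.31% at day 14. In tumors it was 1.71% to 2.19% in WT and 1.59% to 1.91% in KO hosts, above every lung. The nuclear set took 0.296% to 0.342% of counts in lungs and 0.390% to 0.488% in tumors, also without overlap between the tissues.

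By complex, the summed CPM of nuclear genes were higher in tumors in every one. Complex V had sums of 1109 to 1319 in lungs and 1829 to 2177 in tumors, the widest gap. Complex II ran from 219 to 249 in lungs and 304 to 362 in tumors, complex III from 260 to 304 and 390 to 440, complex IV from 486 to 577 and 660 to 762, and complex I from 777 to 894 and 1007 to 1120. None of the 5 sums overlapped between the tissues.

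Both sets were higher in tumors, so that their ratio differed less. Counts of the mitochondrial set with copies were 3.39 to 4.16 times those of the nuclear set in lungs and 3.50 to 5.57 times in tumors. The highest ratio, 5.57 in 1 WT tumor, was followed by 4.90 in 1 KO tumor and by 4.19 as the next WT tumor. Median ratios were 3.51 and 3.76 in WT and KO control lungs, 4.01 and 4.02 in WT and KO day 14 lungs, and 4.10 and 3.89 in WT and KO tumors. The shares of counts depend on Rn7 RNAs, which took 8.33% to 14.1% of counts. They also depend on mt-Rnr2, a ribosomal RNA of mitochondria, at 58801 to 79397 CPM in lungs and 102475 to 143282 in tumors. Shares and ratios are descriptions without a test.

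**Figure D2:**
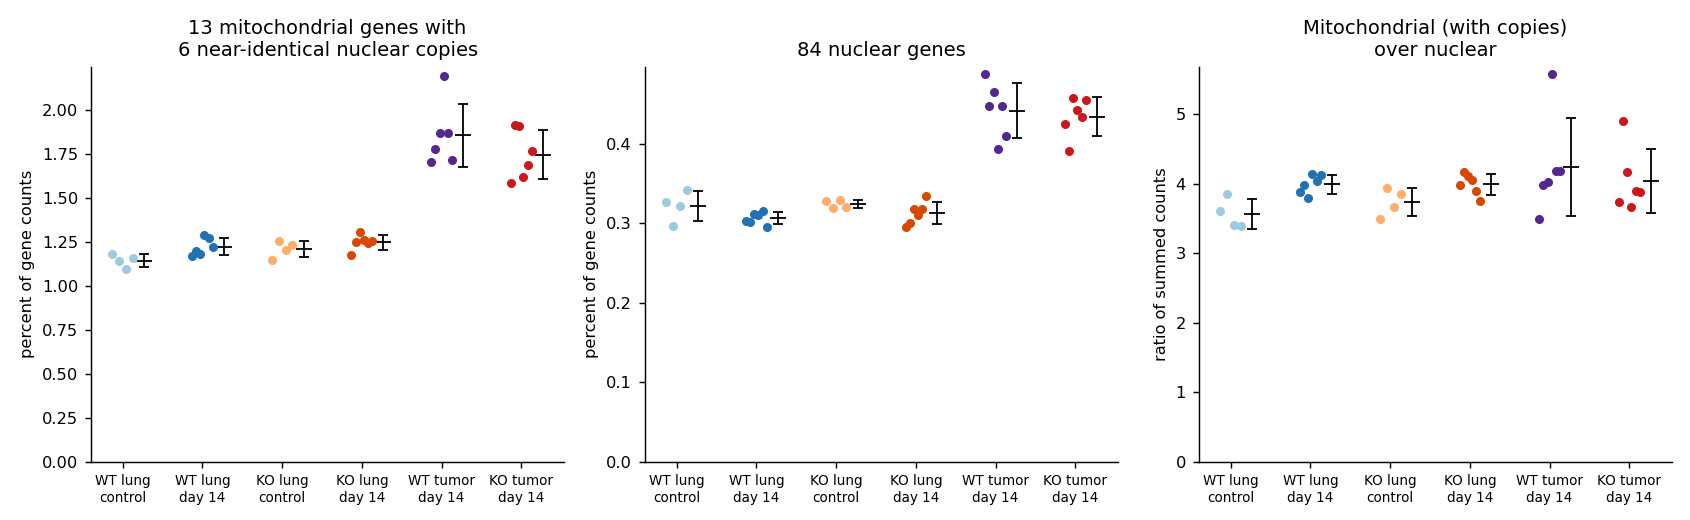
Percent of gene counts on the 13 mitochondrial genes with their 6 counted copies (left) and on the 84 nuclear genes (middle), and the ratio of both (right), one point per sample with mean and SD beside each of the 6 groups. All tumors lie above all lungs in both shares, at 1.59% and more for the mitochondrial and 0.390% and more for the nuclear set, while the ratios of the tissues overlap.

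Primary tumors were first set against lungs of day 14 within each host genotype, to ask how far the genes of both genomes differ between the tissues. Most respiratory chain genes were higher in tumors. In WT mice 8 of 13 mitochondrial genes rose and 0 fell at an FDR of 0.05, and 55 of 82 nuclear genes rose and 8 fell, with a median log2 fold change of 0.51 and 0.41 against -0.0079 over all genes. Of all 16115 genes tested, 75.5% passed this threshold, 37.1% higher and 38.4% lower in tumors. In KO mice 10 mitochondrial genes rose and 1 fell, and 54 nuclear genes rose and 5 fell, with medians of 0.42 and 0.39. Of the nuclear genes that fell, 4 in each genotype were second isoforms of complex IV that passed the filter on low counts through the lungs. Of all genes 74.2% passed in KO mice, 37% higher and 37.2% lower. The share of members that differed was therefore near that of all genes, while 67.1% of the nuclear members in WT mice were higher, against 37.1% of all genes. Tissue, cell type and the cell line cannot be told apart here.

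Nearly all of complex II and complex III rose. Sdhd was at 40.1 to 47.2 CPM in WT day 14 lungs (median 41.0) and at 84.6 to 105 in WT tumors (median 90.2). In KO mice the ranges were 38.0 to 45.0 and 78.4 to 105. The lowest tumor lay far above the highest lung, and Sdhd had the largest rise of the nuclear set in both genotypes, by 1.11 on the log2 scale (SE 0.07, FDR 7.12e-14) in WT and by 1.19 (SE 0.07, FDR 1.92e-14) in KO mice. Sdhc, the other membrane anchor, rose by 0.81 and 0.90. Sdha rose less, by 0.27 and 0.20, and the KO call was lost when genes with under 10 counts in any sample were left out (0.12). Sdhb, the iron-sulfur subunit, had a log2 fold change of 0.12 in WT mice (FDR 0.118) and 0.19 in KO mice (FDR 0.0123), a call that was lost by DESeq2 (0.14), without KO day 14 lung 2 (0.15) and without 2 KO tumors that had Ucp1, the brown fat uncoupling protein, above 10 CPM (0.14). The 2 anchors thus had larger log2 fold changes than the 2 catalytic subunits in both genotypes, an order that was not tested. In complex III 8 of 8 nuclear genes rose in WT and 7 of 8 in KO mice, and mt-Cytb rose with them by 0.51 and 0.35. The calls of Uqcrb and Uqcrq in WT mice were lost by DESeq2 (0.18 and 0.40) and in several fits with 1 sample left out (0.13 to 0.22 and 0.34 to 0.43).

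Complex V followed, with 14 of 17 nuclear genes higher in WT tumors, 13 of 17 in KO tumors and none lower. Atp5b was at 289 to 331 CPM in WT day 14 lungs (median 318) and 591 to 723 in WT tumors (median 671), and at 288 to 360 and 584 to 710 in KO mice. No tumor overlapped with a lung. Its log2 fold change was 1.07 (SE 0.06) in WT and 0.98 (SE 0.06) in KO mice. Atp5g2, one of the genes for the c-ring subunit, rose by 1.04 and 1.13, and Atp5c1, the central stalk subunit gamma, by 0.97 and 0.81. Of the mitochondrial subunits, mt-Atp8 rose by 0.56 and 0.44. mt-Atp6 summed with its copy rose by 0.46 and 0.33.

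Complex I was mixed. In WT mice 21 of 36 nuclear genes rose and 3 fell, and in KO mice 21 rose and 0 fell. The 3 that fell in WT mice were Ndufa1 by 0.45, Ndufs5 by 0.31 and Ndufb10 by 0.28 on the log2 scale, all accessory subunits. Offsets for GC content moved the median of all genes to 0.26 in WT and 0.24 in KO mice, and under them the values of these 3 were -0.16, -0.0057 and -0.02, none of which passed. The call of Ndufa1 was also lost without WT tumor 4 (-0.34). Their KO values did not pass in the first place. Of the 5 mitochondrial subunits of complex I without a counted copy, mt-Nd5 had the highest value and mt-Nd2 the lowest. mt-Nd5 rose by 0.97 (SE 0.09) in WT and 0.80 (SE 0.09) in KO mice, and mt-Nd2 had 0.10 (FDR 0.388) and -0.09 (FDR 0.431). mt-Nd5 was at 343 to 429.7 CPM in WT day 14 lungs and 652 to 932 in WT tumors, without overlap. mt-Nd2 was at 353 to 414 in the same lungs and 348 to 514 in the same tumors, which overlapped. With offsets for GC content mt-Nd2 had 0.26 in KO mice, close to the shift of all genes, and without the 2 KO tumors with Ucp1 above 10 CPM it had -0.24 and passed. Genes transcribed from one strand thus had unlike values between the tissues, a difference that was not itself tested. mt-Nd6 on the other strand rose by 0.72 and 0.61, mt-Nd4 by 0.56 and 0.42, and mt-Nd1 by 0.41 in WT mice. The KO value of mt-Nd1, 0.21, passed (FDR 0.0131) but not by DESeq2 (0.16), without KO day 14 lung 2 (0.17) or without those 2 tumors (0.10). The 2 had the highest mitochondrial shares of the KO tumors, so lower mitochondrial values without them follow from leaving them out. Without them 6 mitochondrial genes rose and 2 fell in KO mice, with a median of 0.33, and 54 nuclear genes rose and 5 fell. With all samples, 37% of all genes were higher and 37.2% lower in KO mice.

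With each mitochondrial gene summed with its copy, 12 of 13 rose in WT mice, all but mt-Nd2, and 11 of 13 rose in KO mice, all but mt-Nd2 and mt-Nd3, with no gene lower. In the fit without sums, 37.1% of all genes were higher in WT mice and 37% in KO mice. The sums of mt-Co2 rose by 0.74 and 0.62, those of mt-Co3 by 0.87 and 0.71 and those of mt-Co1 by 0.67 and 0.65 in WT and KO mice. mt-Co2 alone was listed at 0 in all 6 KO tumors and was called lower there, while its sum rose. The copy held nearly all reads of the pair, as given above. The 12S and 16S ribosomal RNAs of mitochondria, mt-Rnr1 and mt-Rnr2, which are no members, had log2 fold changes of 1.13 and 0.70 in WT and 1.10 and 0.66 in KO mice.

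**Figure D3:**
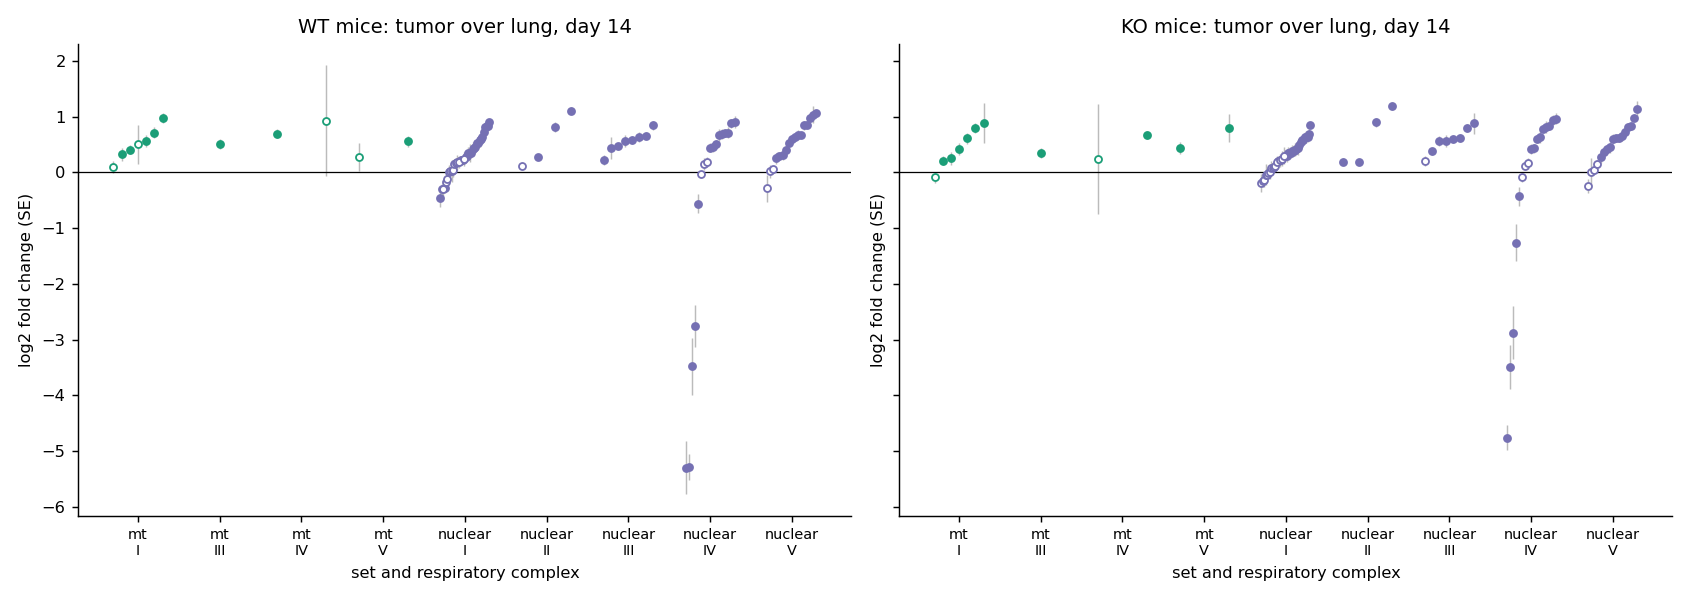
Log2 fold change of primary tumors over day 14 lungs in WT (left) and KO (right) mice for each member by set and respiratory complex, with SE. Filled points passed an FDR of 0.05, open points did not, and mt-Co2 is left out because it was listed at 0 in all KO tumors. All genes of complexes II and III lie above 0, and 5 filled points of complex IV lie below 0 in both panels.

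In complex IV the general and the second isoforms had different values. In WT mice 9 of its 17 tested nuclear genes rose and 5 fell, and in KO mice again 9 rose and 5 fell. The 5 that fell were the same in both, Cox4i2, Cox6a2, Cox6b2, Cox7a1 and Ndufa4l2, though the KO call of Ndufa4l2 did not hold without the 2 KO tumors with Ucp1 above 10 CPM. Of the 5, Cox4i2, Cox6a2, Cox6b2 and Cox7a1 did not pass the filter on low counts among tumors alone and entered the fit through the lungs, where they were high, so their direction was fixed by that and their count is a description that supports nothing. Each of the 5 is a second form of a subunit whose general form was not called lower, and Ndufa4 and Ndufa4l2 are counted with complex IV here. Cox4i2, the form of subunit 4 known from lung, was at 17.7 to 22.7 CPM in WT day 14 lungs (median 19.0) and 0.17 to 0.87 in WT tumors (median 0.53), and at 13.6 to 23.1 and 0.22 to 1.27 in KO mice. Pooled counts were 15 in WT tumors and 694 in WT lungs, or 41.8-fold lower relative to the totals (95% exact interval 25.1 to 75.0, for counting error only), and 29.2-fold lower in KO mice (18.9 to 47.4). Its general form Cox4i1 was at 83.4 to 101 CPM in WT day 14 lungs and 148 to 170 in WT tumors and rose by 0.70 and 0.79. Lungs thus held both forms and tumors nearly Cox4i1 alone.

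Cox6a2 and Cox7a1 are the forms of heart and skeletal muscle. Cox6a2 was at 3.75 to 5.56 CPM in WT day 14 lungs and at 0 in 4 of 6 WT tumors, with 3 counts in all WT tumors against 165 in the lungs, a ratio of 0.0201 (95% interval 0.00411 to 0.0599). In KO mice it had 11 against 140 counts, 12.3-fold lower (6.66 to 25.2). Its general form Cox6a1 was not called, with 0.15 and 0.16. Cox7a1 was at 2.88 to 5.29 CPM in WT day 14 lungs and 0.17 to 1.19 in WT tumors, and at 2.85 to 3.91 and 0.48 to 2.90 in KO mice. Pooled counts were 7.17-fold lower in WT tumors (4.31 to 12.7) and 2.61-fold lower in KO tumors (1.80 to 3.85), while its general form Cox7a2 rose by 0.45 and 0.43. The 2 KO tumors with the most Cox7a1, 2.33 and 2.90 CPM, were also those with the most Ucp1, at 26.8 and 13.4 CPM. Without these 2 tumors, the only ones with Ucp1 above 10 CPM, Cox7a1 had a log2 fold change of -2.01 in KO mice in place of -1.26, a lower value that follows from leaving out the tumors with the most of it.

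Cox6b2, known from testis, had 7 against 97 pooled counts in WT and 11 against 93 in KO mice, or 12.5-fold (5.85 to 31.9) and 8.17-fold (4.36 to 16.9) lower. Its general form Cox6b1 rose by 0.50 and 0.60. Ndufa4l2, a relative of Ndufa4 that is known to rise in hypoxia, fell by 0.56 (FDR 0.0056) in WT and by 0.43 (FDR 0.028) in KO mice, at 6.93 to 9.09 CPM in lungs and 4.19 to 8.27 in tumors of WT mice and 6.82 to 11.5 and 4.69 to 9.03 in KO mice. The tissues overlapped in both genotypes. In KO mice the call was lost without the 2 tumors with Ucp1 (-0.39) and with any of 4 single samples left out (-0.34 to -0.39), KO tumors 3, 4 and 5 and KO day 14 lung 5. Ndufa4 had 0.19 and -0.09 and was not called. Cox8b, the form of subunit 8 known from heart, muscle and brown fat, did not reach the filter, with pooled counts of 13 in WT tumors and 45 in WT lungs, 3.13-fold lower (1.66 to 6.31), and of 31 and 60 in KO mice, 1.87-fold lower (1.19 to 2.98). Its general form Cox8a rose by 0.69 and 0.93, and Cox7b, whose second form Cox7b2 was listed near 0, rose by 0.90 and 0.81. Cox5a rose by 0.71 and 0.96.

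The lungs held heart muscle RNA. Summed cardiac markers were at 539 to 1081 CPM in lungs and 15.5 to 32.9 in tumors, and the myosin genes Myh6 and Myl7 were at 294 to 638 and 22.6 to 44.0 CPM in the lungs and both at 0 in every tumor. All 10 markers were lower in tumors. Among day 14 lungs the cardiac sum also differed by genotype without overlap, at 696 to 1081 CPM in WT and 539 to 683 in KO mice, as did Myh6, at 400.3 to 638 and 294 to 361. Summed skeletal muscle markers were at 8.85 to 25.3 CPM in lungs and 5.12 to 150.0 in tumors, highest in 1 KO tumor and next in 2 WT tumors at 42.0 and 44.6, and of 5 markers tested 3 were higher and 1 was lower in tumors in both genotypes. The part of heart and skeletal muscle RNA in the lower Cox6a2, Cox7a1 and Cox8b of tumors was not tested. Summed endothelial markers were at 3164 to 3569 CPM in lungs and 128 to 219 in tumors, and pericyte markers at 149.7 to 241 and 59.8 to 142, with 6 of 6 and 3 of 4 markers lower in tumors. Their part in the lower Cox4i2 was not tested either. In such bulk samples fewer cells of a type and less RNA per cell cannot be told apart.

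**Figure D4:**
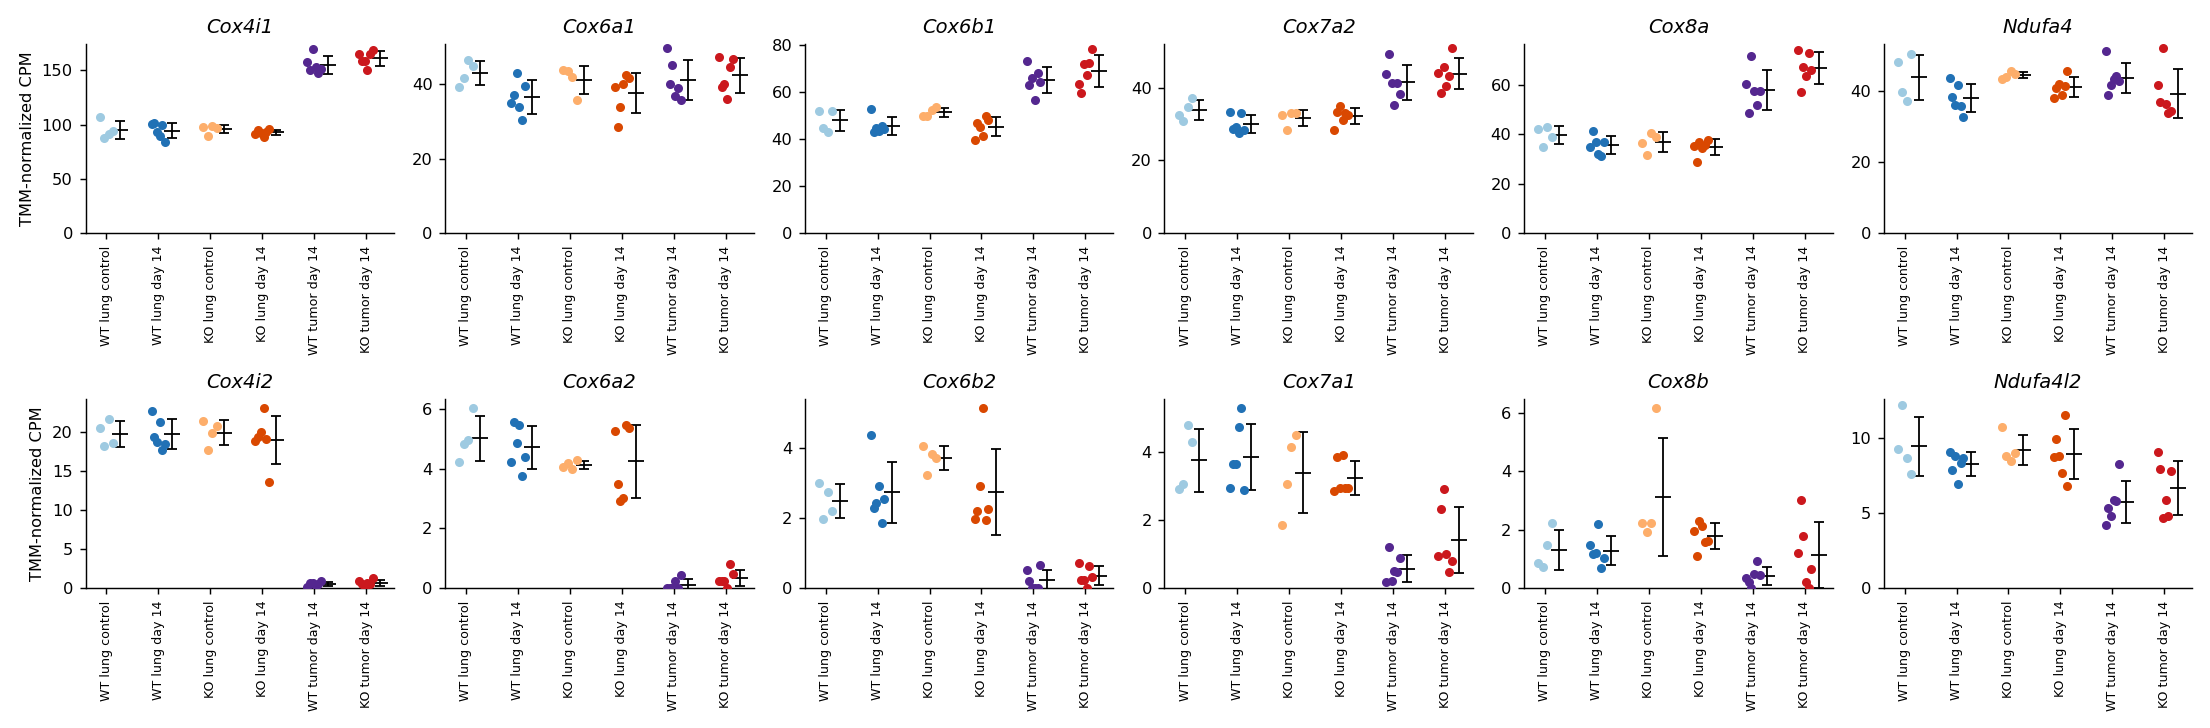
CPM (TMM-normalized, each panel with its own axis from 0) of general forms (top) and second forms (bottom) of 5 complex IV subunits and of Ndufa4 in the 6 groups, one point per sample with mean and SD. Cox4i2 sits at 13.6 to 23.1 in all lungs and at 0.17 to 1.27 in all tumors, whereas Cox4i1 is higher in tumors. Dots on the axis are samples at 0.

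The upstream regions of the nuclear genes were read from RefSeq (GRCm38.p6, 250 bases before to 50 after the start), where 67 of 84 nuclear members had an entry. The letters CGCATGC, as bound by NRF1, a factor known for respiratory chain genes, were searched on both strands and were present in 16.4% of the members (11) and in 4.01% of 27025 genes. The letters CCGGAAG, as bound by ETS factors, were present in 23.9% (16) and in 9.93%. Both motifs may occur in one window. Of tested members with the NRF1-type letters, 7 of 11 rose in WT tumors, against 37 of 54 without, and for the ETS-type letters 10 of 16 against 34 of 49. In KO tumors the counts were 8 of 11 against 36 of 54 and 12 of 16 against 32 of 49. These shares were not tested against each other. Single genes went both ways, as Cox7a2 rose with neither motif and Cox6a1 was not called with both. Windows are shown for Sdhd, the largest rise, for Cox8a, a general form that rose, and for Cox7a1, a second form with lower values, with the ETS-type letters (as read on this strand) in capitals:
Sdhd, chr9:50603800-50604099, minus strand: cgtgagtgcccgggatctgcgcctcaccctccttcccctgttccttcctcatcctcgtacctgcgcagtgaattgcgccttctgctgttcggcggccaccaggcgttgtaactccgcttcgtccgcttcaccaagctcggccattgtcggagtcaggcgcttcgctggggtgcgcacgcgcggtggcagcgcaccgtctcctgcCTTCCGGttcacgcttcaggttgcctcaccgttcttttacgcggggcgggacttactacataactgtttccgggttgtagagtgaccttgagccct
Cox8a, chr19:7217567-7217866, minus strand: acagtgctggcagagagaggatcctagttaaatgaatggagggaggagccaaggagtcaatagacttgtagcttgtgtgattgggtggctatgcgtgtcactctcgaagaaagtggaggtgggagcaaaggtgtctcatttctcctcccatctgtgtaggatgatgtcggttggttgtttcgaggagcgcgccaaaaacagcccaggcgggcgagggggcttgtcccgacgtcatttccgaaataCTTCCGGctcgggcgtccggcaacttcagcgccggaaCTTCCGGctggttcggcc
Cox7a1, chr7:30183921-30184220, plus strand: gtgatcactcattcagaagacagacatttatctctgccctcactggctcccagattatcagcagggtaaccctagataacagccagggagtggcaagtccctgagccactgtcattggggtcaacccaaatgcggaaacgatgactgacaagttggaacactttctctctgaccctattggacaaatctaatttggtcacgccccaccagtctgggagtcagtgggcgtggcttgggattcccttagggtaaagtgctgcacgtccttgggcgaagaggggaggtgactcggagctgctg
The windows also differed in CpG. Sdhd had 29 CpG dinucleotides, Cox8a had 19 and Cox7a1 had 7, and the median was 19 over windows of the nuclear set and 7 over all windows. Cox8b had 2, Cox6b2 had 10, Cox7a2 had 20 and Cox6a1 had 32.

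Genes that make, regulate or feed the respiratory chain were counted in lists beside the members, and each count reads against the 37.1% of all genes that were higher and 38.4% that were lower in WT tumors, and 37% and 37.2% in KO tumors. Of regulators of mitochondrial genes, 10 of 18 rose and 1 fell in WT mice, and 9 rose and 2 fell in KO mice. Ppargc1a, the coactivator known for driving mitochondrial biogenesis, had log2 fold changes of -4.90 (SE 0.38) and -3.97 (SE 0.34), but it did not pass the filter on low counts among tumors alone and entered the fit through the lungs, so its direction was fixed by that. Tfam, which packages and transcribes mitochondrial DNA, rose by 0.93 in WT mice and Tfb2m, a transcription factor of mitochondria, by 1.34. In KO mice Pprc1 rose by 1.61 and Ssbp1 by 1.02. Of factors for mitochondrial RNA processing and stability, 15 of 18 rose in both genotypes, among them Ptcd3 by 1.46 and 1.33 and Tbrg4 by 1.52 and 1.55, with 1 lower in WT mice. Ppargc1a is also known from heart muscle, and the part of the cardiac RNA in its value was not tested.

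Of assembly factors for complex I, 4 of 13 rose and 3 fell in either genotype, with Timmdc1 at 0.84 and Ndufaf3 at -0.98 in WT mice. These counts were not tested against the shares of all genes. Of factors for complexes II to V, 18 of 28 rose and 1 fell in WT mice and 12 rose and 2 fell in KO mice, with Uqcc2 at 1.40 and 1.46. Of the mobile carriers and the enzymes that feed them, 10 of 16 rose and 0 fell in both, including Gpd2, the mitochondrial glycerol phosphate dehydrogenase, by 1.22 and 1.33 and cytochrome c (Cycs) by 0.77 and 0.70. Of the tricarboxylic acid cycle 14 of 19 rose in both, with 4 lower in WT and 3 in KO mice. Suclg2 rose by 1.54 and 1.41, and Ogdh fell by 0.64 and 0.72.

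Glycolysis moved by far more than the respiratory chain. Of 20 glycolysis genes 19 rose and 1 fell in both genotypes, with a median of 2.49 in WT and 2.58 in KO mice against 0.41 and 0.39 for the nuclear set. Pkm rose by 3.11 and 3.18, and Ldha, which turns pyruvate into lactate, by 2.67 and 2.61. Of 14 hypoxia response genes 10 rose and 2 fell, among them Egln3, up by 5.31 and 5.93, and Vegfa, which fell by 2.95 and 2.58. The size of these lists' medians was not tested against that of the members.

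The host genotype was compared in tumors next, where KO means that only the stroma lacks Clic4. None of the 90 members tested, 12 mitochondrial and 78 nuclear, passed an FDR of 0.05 by edgeR, while 2.51% of all 13830 genes did. At an unadjusted p under 0.05 there were 1 mitochondrial and 7 nuclear members, or 8.89% of the 90, against 15.5% of all genes, and DESeq2 called none. Ndufa3, an accessory subunit of complex I, came closest. It was at 12.2 to 15.3 CPM in WT tumors (median 13.8) and 15.8 to 21.4 in KO tumors (median 17.6), and the groups did not overlap. Its log2 fold change was 0.39 (SE 0.10, FDR 0.0549), and it passed when genes with under 10 counts in any sample were left out. Cox5a, a matrix-side subunit of complex IV, was at 29.5 to 31.6 in WT and 33.0 to 42.4 in KO tumors, also without overlap, with 0.27 (SE 0.07, FDR 0.0738).

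Most mitochondrial genes leaned the other way. In KO tumors 10 of 12 had a log2 fold change below 0, with a median of -0.17, and all 7 genes without a counted copy were below 0, from -0.27 for mt-Nd6 (FDR 0.290) to -0.15 for mt-Nd1. Summed with their copies, mt-Co2 had -0.07, mt-Co3 -0.06, mt-Atp6 -0.17, mt-Nd3 -0.14 and mt-Nd4l -0.29. The sum of mt-Co1, the highest member, went the other way with 0.08, as did the ribosomal mt-Rnr1 and mt-Rnr2 with 0.07 and 0.09. The nuclear median was 0.05, with Ndufc2 the lowest at -0.30 (FDR 0.279). mt-Nd6 was at 69.5 to 103 CPM in WT tumors and 56.3 to 96.1 in KO tumors, which overlapped widely. Genes of one polycistronic RNA do not vary independently, and none of these values passed. Summed leukocyte markers were at 227 to 459 CPM in WT and 410 to 624 in KO tumors, and adipocyte markers at 142 to 315 and 168 to 750. The part of the leukocyte markers in these values was not tested. KO tumors 2 and 3, with the highest adipocyte sums (750 and 518) and with Ucp1 above 10 CPM, were left out in a further fit. They were also the KO tumors with the highest mitochondrial share with copies, 1.91% of counts in each against 1.59% to 1.77% in the other 4, so lower KO values without them follow from leaving them out and support nothing. There the mitochondrial median was -0.32 in place of -0.17, and 8 of 12 mitochondrial genes had an unadjusted p under 0.05, against 13.3% of all genes, but 0 passed an FDR of 0.05. mt-Nd4 went from -0.23 to -0.40 (FDR 0.104), mt-Atp8 from -0.24 to -0.34 (FDR 0.241) and mt-Nd2 from -0.16 to -0.30 (FDR 0.213).

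In day 14 lungs 0 of 96 members passed between KO and WT mice by edgeR or DESeq2, against 0.0936% of all genes. At an unadjusted p under 0.05 there were 2, mt-Nd6 with -0.17 (FDR 0.594) and Atp5g3, a gene for the c-ring subunit, with 0.14 (FDR 0.540), against 8.34% of all genes. In control lungs 0 passed by either tool, against 0.0187% of all genes, and 7 of 96 had an unadjusted p under 0.05, against 11.6% of all genes. mt-Nd3 had the smallest p of the single genes. It was at 78.3, 92.5, 97.0 and 111 CPM in WT and 126, 131, 118 and 116 in KO control lungs, so that all 4 KO lungs lay above all 4 WT lungs, with 0.37 (SE 0.12, FDR 0.267). Summed with its copy it had 0.31 (SE 0.11, FDR 0.294). Of the sums mt-Co3 had the smallest p, with 1719, 1646, 1571 and 1677 CPM in WT and 1788, 1901, 1922 and 2001 in KO control lungs, again without overlap, and 0.20 (SE 0.05, FDR 0.216). Cox8b had 1.25 (SE 0.40, FDR 0.278), from 0.84, 0.72, 1.47 and 2.22 CPM in WT and 2.21, 1.91, 2.24 and 6.17 in KO control lungs. The lung at 6.17 was the one with 12.7 CPM of Ucp1, and without it the value was 0.70 (FDR 0.537). Uqcr11, a small subunit of complex III, had -0.34 and Ndufs7, a core iron-sulfur subunit of complex I, -0.40.

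Lungs were then compared before and after the graft, that is day 14 against control lungs within a genotype. In WT mice 0 of 96 members passed an FDR of 0.05 by edgeR, as did 0% of all 16029 genes, and DESeq2 called 1 member, Uqcr11. At an unadjusted p under 0.05 there were 21.9% of the members, 7 of 13 mitochondrial and 14 of 83 nuclear, against 11.8% of all genes. All 7 mitochondrial genes were higher at day 14, and 13 of the 14 nuclear genes were lower. Over the sets, 12 of 13 mitochondrial log2 fold changes were above 0, with a median of 0.21, and 59 of 83 nuclear ones below 0, with a median of -0.08, while the median of all genes was 0.0032. With genes summed with their copies, 8 of 13 mitochondrial genes had an unadjusted p under 0.05 and the median was 0.13.

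Uqcr11 showed the clearest difference of the nuclear set. It was at 28.1, 30.8, 28.3 and 30.6 CPM in WT control lungs and at 17.2 to 23.8 (median 21.3) in WT day 14 lungs. The groups did not overlap, and the log2 fold change was -0.49 (SE 0.11, FDR 0.0987). In KO mice it was at 27.7, 21.2, 22.7 and 21.9 in control and 19.2 to 27.0 in day 14 lungs, which overlapped. Atp5d, the delta subunit of the complex V stalk, was at 39.9, 39.1, 44.7 and 32.5 in WT control and 25.8 to 36.9 in WT day 14 lungs, with -0.32 (SE 0.10, FDR 0.209). Of the mitochondrial genes, mt-Nd2 was at 354, 344, 319 and 299.6 in WT control and 353 to 414 in WT day 14 lungs, which overlapped at the edge, with 0.22 (SE 0.07, FDR 0.209). mt-Nd3 had 0.35 (SE 0.11, FDR 0.209), from the 4 WT control lungs given above and 100.5 to 139 CPM at day 14.

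The GC content of the sets differs, with a median of 37.1% over the mitochondrial and 50.2% over the nuclear genes. With offsets for GC content the mitochondrial genes under an unadjusted p of 0.05 in WT lungs went from 7 to 1 and their median from 0.21 to 0.11, while 10 nuclear genes were lower and 1 higher. The higher mitochondrial values of WT lungs are thus smaller once GC content enters the fit. Without offsets 11.8% of all genes had an unadjusted p under 0.05. The share with offsets is not given here, so the counts with offsets are descriptions.

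In KO mice 0 of 96 members passed by edgeR, against 0.0374% of all genes, and DESeq2 called mt-Nd2 (0.30, FDR 0.0096). At an unadjusted p under 0.05 there were 6, against 8.64% of all genes. mt-Nd2, a membrane subunit of complex I, was at 317, 305, 308 and 339 CPM in KO control and 332 to 425 (median 397) in KO day 14 lungs. The groups overlapped in 1 day 14 lung, and the log2 fold change was 0.30 (SE 0.07, FDR 0.126). mt-Nd5 was at 323, 332, 326 and 347 in control and 350.0 to 412 in day 14 lungs, without overlap, with 0.20 (SE 0.07, FDR 0.319). Ndufa9 of complex I had -0.25 (FDR 0.440) and Cox6b1 -0.18 (FDR 0.487). The mitochondrial median was 0.07 and the nuclear median -0.05.

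**Figure D5:**
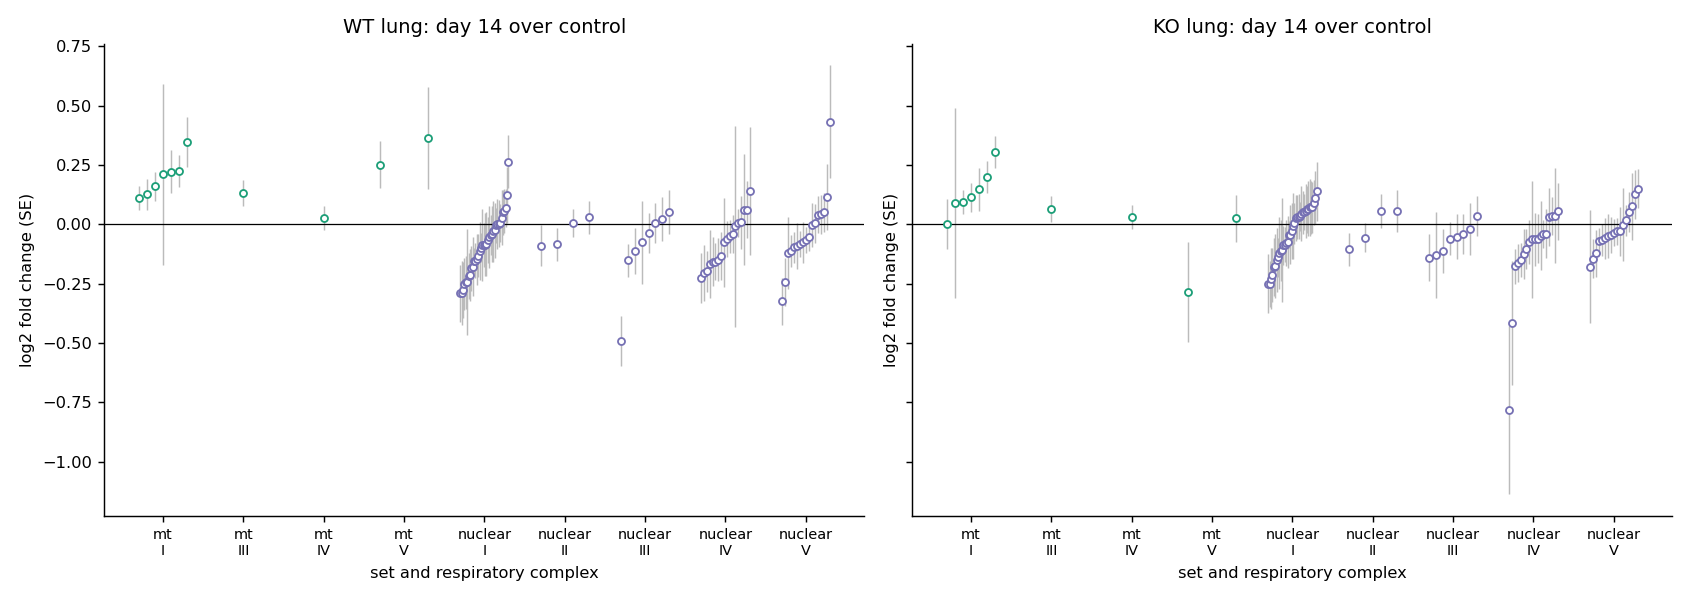
Log2 fold change of day 14 over control lungs in WT (left) and KO (right) mice for each member by set and respiratory complex, with SE. All points are open because none passed an FDR of 0.05, and mt-Co2 and mt-Co3 are left out for their wide errors (SE 1.18 and 1.05 in WT mice). Left out, mt-Co3 was the only mitochondrial gene below 0 in WT mice, at -0.18, and mt-Co2 and mt-Co3 had -0.49 and -0.16 in KO mice. In WT mice the shown mitochondrial genes lie above 0 and most nuclear genes below 0, with Uqcr11 lowest at -0.49.

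The difference between both genotypes was tested as an interaction, and 0 of 96 members passed by either tool, against 0.00624% of all genes. At an unadjusted p under 0.05 there were 6, against 8.53% of all genes. Uqcr11 had an interaction of 0.47 (SE 0.15, FDR 0.407) and Atp5d of 0.45 (SE 0.14, FDR 0.403), from day 14 values of -0.49 and -0.32 over control in WT mice and -0.02 and 0.13 in KO mice. mt-Nd3 had -0.35 (FDR 0.529), and -0.24 (SE 0.14, FDR 0.679, unadjusted p 0.102) when summed with its copy. These lungs stand in both of the comparisons above, so the values are not further evidence for them.

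Whether the genotype difference itself differed between tumors and day 14 lungs was tested last. None of 95 members passed by edgeR, against 0.707% of all genes, and DESeq2 called mt-Co2 alone, whose counts are 0 in all KO tumors. At an unadjusted p under 0.05 there were 4, Cox7a1, Ndufc2, Cox6a2 and Ndufb10, against 10.9% of all genes. Cox7a1 had 1.49 (SE 0.52, FDR 0.243), that is less far below lung in KO than in WT tumors, and 0.74 (FDR 0.654) without the 2 tumors with Ucp1 above 10 CPM, which had the most Cox7a1. Its tumor side rests on 17 pooled counts in WT and 40 in KO tumors, and that of Cox6a2 on 3 and 11, and both genes passed the filter through the lungs. In those lungs the cardiac sum was 696 to 1081 CPM in WT and 539 to 683 in KO mice, and its part in both values was not tested. Without the 2 tumors, which had the highest mitochondrial shares of the KO tumors, 5 mitochondrial genes had an unadjusted p under 0.05, against 10.4% of all genes in that fit, with a median of -0.29 over the set and 0 past an FDR of 0.05. Ndufc2, a small membrane subunit of complex I, had -0.46 (SE 0.18, FDR 0.322), from 17.1 to 27.1 CPM in WT tumors and 13.9 to 18.5 in KO tumors.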

How the data were processed

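RNA of 32 samples was sequenced paired-end after TruSeq Stranded mRNA preparation. Samples of a group came from separate animals per the study's methods, and the labels tie no tumor to a lung. The authors aligned reads to GRCm38 (mm10) with STAR 2.7.8a and deposited expected counts per gene from RSEM 1.3.2, which are whole numbers without normalization. The deposited FPKM are the authors' RSEM values, listed by symbol, and are used only to compare genes. The annotation release was not given in the sources used here, and positions are from GENCODE M21.

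Counts were tested with the quasi-likelihood test of edgeR 4.0.16 (R 4.3.3, TMM, filterByExpr) in 3 fits, with 12 tumors, 20 lungs, or the 24 samples of day 14, adjusted over all genes by Benjamini-Hochberg, and called at an FDR of 0.05. Of the members 90, 96 and 95 were tested. The SE is the log2 fold change divided by the root of F. Intervals of pooled counts are exact conditional ones at 95% and cover counting error only. Copies were found with blastn 2.17.0 (identity of 99% over at least 100 bases). The steps were tested on simulated data, where 2-fold changes were recovered in 86%, 94% and 82% of changed genes in tumors, day 14 lungs and WT tumors against lungs, and 1.25-fold changes in 8%, 40% and 20%. Of the genes called there, 3.91%, 4.91% and 7.14% were false, the last above the nominal rate of the FDR of 0.05.

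Members, lists and tests were chosen with earlier results of these data known. Named are all mitochondrial genes, the Sdh genes, isoforms and their partners, the 5 called nuclear genes of largest change per direction, extremes, the highest member of each complex and the 3 genes of smallest p per list; genes under an unadjusted p of 0.05 or without overlap were named after their values were seen. Of the genes this rule names, 1 is not reported here. Alternatives were DESeq2 1.42.0, RLE size factors, other filters, GC offsets, a replicate block, other library sizes, only the compared groups, the study's limits, each sample left out, and, chosen after seeing the data, sums with copies and a fit without 3 libraries with Ucp1 above 10 CPM. Python 3.11.15 with numpy 2.4.6, pandas 2.3.3 and matplotlib 3.10.9 was used.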

Additional observations from a re-analysis of the deposited data

Results flagged for a closer look

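In 14 of 203 groups of samples examined by Dixon's test, 1 sample stood apart from the others, where chance gives about 1 in 20. Of these, mt-Co2 was at 71.6 CPM in 1 KO control lung with the next of the group at 34.6, and at 111 in 1 KO day 14 lung with the next at 34.1, and its reads are shared with a copy. Of the other mitochondrial genes, mt-Atp8 was at 57.6 CPM in KO control lung 4, against 41.3 in the next.

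KO control lung 4 was also the lung with Cox8b at 6.17 CPM, against 2.24 in the next, and with Ucp1 at 12.7 CPM. Cox6b2 was at 5.15 CPM in KO day 14 lung 4 (next 2.93) and Cox7b at 34.9 in KO day 14 lung 6 (next 25.9). Cox8a was low at 28.6 in KO day 14 lung 2 (next 34.5), and Cox7a2 was low at 28.4 in KO control lung 2 (next 32.5). Cox6b1 was at 52.9 in WT day 14 lung 1 (next 45.4).

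In complex II, Sdhb was at 48.4 CPM in WT control lung 4 (next 43.1), and Sdhd at 47.2 in WT day 14 lung 3 (next 41.8) and at 105 in WT tumor 6 (next 90.6). Among WT tumors, number 4 had the highest mitochondrial share with copies, 2.19% of counts (next WT tumor 1.87%), and the highest ratio to the nuclear set, 5.57 (next WT tumor 4.19).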

How the results depend on the processing

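Members called in tumors against lungs went from 71 in WT and 70 in KO mice to 7 and 7 with a 2-fold limit added, and to between 66 and 73 (WT) and 63 and 73 (KO) with each sample left out, while the other 7 comparisons stayed at 0 to 0. Elsewhere counts left 0 in 5 fits. Ndufa3 (1 member) was called in KO against WT tumors at 10 or more counts in every sample, DESeq2 called 1 member each in KO and in WT lungs, and for the genotype effect across tissues mt-Co2 (1 member) was called by DESeq2 and Cox7a1 (1 member) at the study's looser FDR of 0.25 without a fold limit. GC offsets moved the median of all genes in tumors against lungs to 0.26 in WT and 0.24 in KO mice, the mitochondrial median to 0.84 and 0.77 and the nuclear median to 0.64 and 0.62. Signs turned for mt-Co2 summed with its copy (0.74 in WT, 0.62 in KO mice), and, under GC offsets and about by the shift of all genes, for Cox6c in WT mice (0.27, and 0.27 with the replicate block), Ndufa4 in KO mice (0.22) and mt-Nd2 in KO mice (0.26, and 0.25 with the block). A fold limit beside the same FDR can only remove genes, and the other causes were not tested. Same-numbered samples were not paired in the tests, and the labels do not say whether a tumor and a lung share an animal. Deviations of same-numbered samples correlated by -0.34 to 0.14 between KO and WT tumors and by 0.037 to 0.16 between KO tumors and KO lungs, where 4 of 6 tumors correlated best with their own number. The replicate block gave 70 members in WT mice, 68 in KO mice and 0 elsewhere. Depth limited Cox4i2, Cox6a2, Cox6b2, Cox7a1 and Cox8b, with 3 to 40 pooled counts in the tumors of a genotype.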
